A study of Homo sapiens with 15 samples.

Results

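The comparison described here asks whether the effect of FT895 on gene expression in TGFb-treated kidney epithelial cells at 12 h differed from its effect at 1 h. It uses 12 of the 15 RNA-seq libraries of the study, in 4 groups of 3, and takes the difference FT895 minus vehicle at 12 h and subtracts the difference FT895 minus vehicle at 1 h. All groups are HK-2 cells, an immortalised line from human kidney proximal tubule, wild type, grown in DMEM/F12 with serum. The groups are TGFb with FT895 for 12 h, TGFb with DMSO vehicle for 12 h, TGFb with FT895 for 1 h and TGFb with DMSO vehicle for 1 h, with TGFb at 2 ug/ml throughout. Mock cells, which received PBS and are labelled 0 h, are given for their level; they also count in the level filter and in the shared estimate of the spread. No group received FT895 without TGFb, so every difference is one in the presence of TGFb. No source used here gives the dose of FT895. The 4 groups were chosen from the labels and the genes by a level filter, not by how they moved: tests covered 12467 of the 24880 loci in the deposited table, those that reached 1 FPKM in 3 or more of the 15 libraries. FPKM is a fragment count divided by transcript length and by the library total.

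FT895 is a selective inhibitor of HDAC11, the only class IV histone deacetylase, an enzyme known to remove long-chain fatty-acyl groups from lysine. Several of the genes that differed belong to the response to low oxygen. In that pathway prolyl hydroxylases such as EGLN1 mark the alpha subunits of the hypoxia-inducible factors (HIF) for degradation when oxygen and iron are at hand. When hydroxylation stops, HIF accumulates, binds promoters and enhancers at core letters such as ACGTG and raises genes of glucose uptake, glycolysis, blood vessel growth and the hydroxylases themselves. Kidney tubule cells are a known site of HIF accumulation under low oxygen, and iron handling is tied to the pathway because the hydroxylases need iron.

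Per library the deposited FPKM summed to between 386532 and 434520, and 11712 to 12023 loci reached 1 FPKM. Vehicle with TGFb at 1 h, replicate 1, stood apart. Its sum of 434520 compares with at most 406560 in the other 14 libraries. Its residual spread around its group mean was 0.211 on the log2 scale against 0.107 to 0.156, and its second principal component score was −25.0 against −6.39 to 14.4. Results are therefore given with and without that library. RNA of a whole culture was measured, so fewer cells with a transcript and less of it per cell cannot be told apart. The line expressed the kidney epithelial gene PAX8 (23.9 to 55.8 FPKM), GGT1 (58.1 to 83.4 FPKM) and the keratin gene KRT8 (276 to 459 FPKM). The proximal tubule genes LRP2 and SLC22A6, and the epithelial cadherin CDH1, were listed at 0 in all libraries, and CUBN and ANPEP stayed below 0.1 FPKM. Other proximal tubule genes were present, such as CDH6 (29.1 to 55.6 FPKM), SLC4A4 (2.92 to 9.10 FPKM) and MME (2.65 to 5.56 FPKM), and 8 of 27 genes of that list passed the level filter. Among markers of other cells, 2 of 13 for fibroblasts and pericytes, 2 of 13 for endothelium, 1 of 14 for leukocytes and 2 of 16 for the distal nephron and podocytes passed the level filter. None of them was called, where 0.168% of all genes were called. Those that passed were LUM and RGS5, ENG and ESAM, CD68, and SYNPO and PODXL. In the treated libraries RGS5 reached 13.1 FPKM, ENG 11.1, CD68 46.5 and SYNPO 15.2, and LUM had 4.61 to 10.5 FPKM over all libraries. PDGFRA, VWF, KDR, CD3E and UMOD were listed at 0 in all 12 treated libraries. The summed fibroblast list ranged over 13.1 to 15.6 FPKM with FT895 at 12 h, against 13.4 to 20.4 with vehicle at 12 h, and over 18.2 to 22.0 with FT895 at 1 h, against 16.6 to 21.3 with vehicle at 1 h. The summed list for distal nephron and podocytes ranged over 15.4 to 15.9 FPKM with FT895 at 12 h, against 18.5 to 19.4 with vehicle at 12 h, and over 11.3 to 12.3 with FT895 at 1 h, against 10.6 to 14.3 with vehicle at 1 h. The endothelium list summed to 12.7 to 13.8 FPKM with FT895 at 12 h, against 13.6 to 14.5 with vehicle at 12 h, and to 6.94 to 7.95 with FT895 at 1 h, against 6.31 to 8.72 with vehicle at 1 h. For leukocytes the sums, carried by CD68, were 33.9 to 37.9 FPKM with FT895 at 12 h, against 33.4 to 38.1 with vehicle at 12 h, and 41.3 to 45.3 with FT895 at 1 h, against 42.8 to 47.2 with vehicle at 1 h. The part of these genes in the results was not tested.

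The effect of FT895 differed between 12 h and 1 h for 21 genes, 18 in which it was higher at 12 h and 3 in which it was lower. The higher set holds genes of the low-oxygen response and of glucose and glycogen metabolism, among them PFKFB4, PFKFB3, HK2, SLC2A3, PPP1R3C, ADM, HILPDA, NDRG1 and EGLN1, together with the mTORC1 inhibitor DDIT4, the clock repressor CIART and the heme-degrading enzyme HMOX1. The lower set holds the transferrin receptor TFRC, the cytochrome P450 CYP1B1 and SHISA2. Calls are at a Benjamini-Hochberg adjusted p under 0.05 from limma, two-sided, over all 12467 genes, and the 21 calls are 0.168% of them, 0.144% called higher and 0.0241% called lower. The split was 20 higher and 1 lower under median-of-ratios scaling, and 19 higher and 1 lower under quantile normalization. At an unadjusted p under 0.05 more genes were lower than higher, with 303 genes (2.43%) higher and 675 (5.41%) lower, 7.84% in all. The median difference over all genes tested was −0.04 on the log2(FPKM + 1) scale, and 41.1% of genes were above 0. With median-of-ratios scaling or quantile normalization that median was 0.00, so the 41.1% used as a background below depends on the scaling. Nothing in the labels ties the 3 libraries of a group to separate cultures, and the p-values therefore measure only the spread between libraries. The count of 21 rested in part on single libraries: it was 8 without FT895 1 h replicate 2, 10 without FT895 12 h replicate 3, 13 each without vehicle 12 h replicates 1 and 2, and 11 when mock was left out of the fit. PPP1R3C, DDIT4, PFKFB4, KCTD11, RAB20, ADM, TFRC and CIART were called in every one of the 23 alternative analyses that tested them, while HMOX1 was called in 7, CYP1B1 in 8, HK2, PFKFB3 and SHISA2 in 9 each, ANKZF1 in 10 and FUT11 in 9 of 22.

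In 17 of the 18 higher genes the mean with FT895 lay above that with vehicle at 12 h and below it at 1 h; HMOX1, the exception, lay above vehicle at both times. In the 3 lower genes the order was the reverse. FT895 was at 1.12 to 1.72 times vehicle at 12 h in the 18 higher genes, as ratios of mean FPKM, and at 0.478 to 0.867 times vehicle at 1 h in the 17 without HMOX1. Opposite effects of this kind follow in part from the choice of genes, since a large difference is what the call selects. At 12 h the FT895 and vehicle libraries did not overlap in 21 of the 21 genes, against 13.9% of all genes tested. At 1 h they did not overlap in 19 of 21, against 16.3%, HK2 and CYP1B1 being the exceptions. The call was made on the same values, so this separation follows largely from the choice of genes and is no further support. The single times were tested too. FT895 against vehicle gave 2 calls at 12 h (0.016% of genes), both higher, and 9 at 1 h (0.0722%), all lower; these counts ran over 1 to 44 and 4 to 19 when single libraries were left out. DDIT4 was called at both times, HMOX1 at 12 h alone, 7 of the 21 at 1 h alone (PPP1R3C, PFKFB4, RAB20, KCTD11, BTG1, CIART and EGLN1), and 12 at neither. Without vehicle 1 h replicate 1 this split was different: 6 of the 21 were called at both times (DDIT4, PPP1R3C, PFKFB4, KCTD11, NDRG1 and PFKFB3), 6 at 12 h alone (HMOX1, HK2, SLC2A3, RAB20, TFRC and CYP1B1), 2 at 1 h alone (CIART and EGLN1) and 7 at neither.

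**Figure D1:**
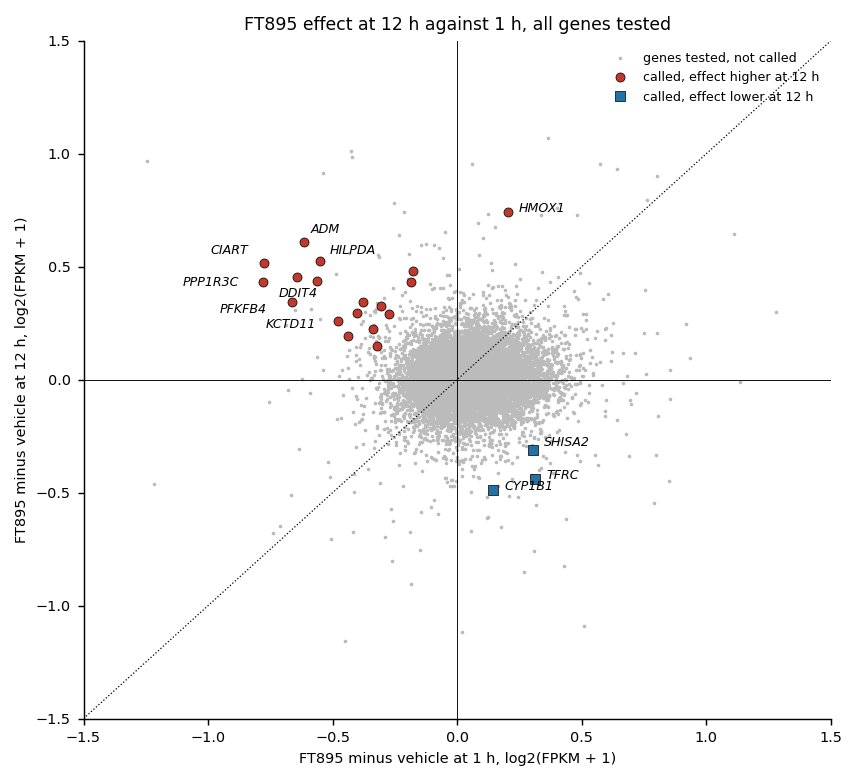
Each point is 1 of the genes tested, with the FT895 minus vehicle effect at 1 h on the x axis and at 12 h on the y axis, both in log2(FPKM + 1); 8 genes beyond ±1.5 are not drawn, and the dotted diagonal marks equal effects. The 18 genes called higher (red circles) lie up and left of the diagonal, 17 of them in the quadrant above vehicle at 12 h and below it at 1 h, and the 3 called lower (blue squares) lie in the opposite quadrant.

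Set against mock, the pattern of the 18 higher genes was one of low levels at 1 h with FT895 and high levels at 12 h with FT895. TGFb with FT895 at 12 h had the highest mean of the 4 treated groups in 16 of the 18, and TGFb with FT895 at 1 h had the lowest in 14. With FT895 the mean was higher at 12 h than at 1 h in 17 of 18 genes; with vehicle this was so in 8 of 18. The mean at 12 h with FT895 lay above mock in 16 of 18 genes, and at 1 h with FT895 it lay below mock in 15 of 18. These counts describe genes picked by the same values and carry no test. Mock is labelled 0 h and received PBS, so a distance from mock combines TGFb, vehicle, FT895 and time, which cannot be told apart.

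HDAC11 itself (chromosome 3, 13479724 to 13506424, plus strand, GRCh38 as in GENCODE v29) was expressed at a low level throughout. It stood at 2.59, 2.66 and 2.96 FPKM with FT895 at 12 h, against 2.31, 3.02 and 2.63 FPKM with vehicle at 12 h. At 1 h HDAC11 had 2.91, 3.18 and 3.11 FPKM with FT895, against 3.47, 3.15 and 3.12 FPKM with vehicle. The groups overlapped at both times, and the difference between the effects was 0.10 (95% interval −0.17 to 0.37, adjusted p = 0.845, limma). FT895 acts on the enzyme and not on its message, so this level checks no label. Of 17 histone deacetylase and sirtuin genes tested none was called, where 0.168% of all genes were called. That count is near the background and is no result about these genes. Their median difference was 0.01, with values from −0.26 to 0.82.

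Glucose enters the cell through transporters such as SLC2A3 (GLUT3), is phosphorylated by hexokinases such as HK2, and passes through a step set by fructose 2,6-bisphosphate, which the PFKFB enzymes make and remove. PFKFB4 (chromosome 3, 48517684 to 48562015, minus strand) was at 22.3, 23.3 and 24.3 FPKM with FT895 at 12 h, against 17.05, 18.9 and 18.6 FPKM with vehicle at 12 h. At 1 h it was at 10.97, 11.05 and 10.96 FPKM with FT895, against 16.8, 17.7 and 19.5 FPKM with vehicle. The 3 FT895 libraries lay above all vehicle libraries at 12 h and below all of them at 1 h, and the levels with FT895 at 1 h were nearly the same in its 3 libraries. The difference was 1.00 ± 0.086 on the log2 scale (SE; adjusted p = 4.85e-05, limma; 1.05 without vehicle 1 h replicate 1). It was made up of 0.34 at 12 h (adjusted p = 0.0574) and −0.66 at 1 h (adjusted p = 0.000156). PFKFB3, its ubiquitous relative, was at 75.5, 80.9 and 83.1 FPKM with FT895 at 12 h, against 68.4, 67.5 and 68.7 FPKM with vehicle at 12 h. At 1 h PFKFB3 had 80.2, 85.3 and 88.4 FPKM with FT895, against 94.1, 114 and 115 FPKM with vehicle. Here the levels at 1 h were above those at 12 h under vehicle, with mock at 56.3 FPKM, and the FT895 libraries were again the higher ones at 12 h and the lower ones at 1 h. Its difference was 0.56 ± 0.098 (adjusted p = 0.0356, limma; 0.65 without vehicle 1 h replicate 1).

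SLC2A3 stood at 9.97, 10.03 and 10.3 FPKM with FT895 at 12 h, against 7.46, 7.91 and 6.43 FPKM with vehicle at 12 h. At 1 h SLC2A3 had 6.24, 6.02 and 5.94 FPKM with FT895, against 6.69, 7.504 and 6.92 FPKM with vehicle. The groups did not overlap at either time, the gap at 1 h being the smaller one, and the difference was 0.62 ± 0.096 (adjusted p = 0.0142, limma; 0.65 without vehicle 1 h replicate 1). HK2 was at 8.87, 9.26 and 10.1 FPKM with FT895 at 12 h, against 6.13, 7.29 and 6.02 FPKM with vehicle at 12 h. At 1 h HK2 had 7.58, 7.88 and 7.61 FPKM with FT895, against 7.67, 9.34 and 9.59 FPKM with vehicle. At 12 h every FT895 library was above every vehicle library, whereas at 1 h the highest FT895 library exceeded the lowest vehicle library, replicate 1; the difference was 0.66 ± 0.12 (adjusted p = 0.046, limma; 0.75 without that replicate). Of 20 glycolysis genes tested, HK2 and SLC2A3 were called higher and none lower, where 0.144% of all genes were called higher. A difference above 0 was seen in 16, against 41.1% of all genes. The median was 0.05 and became −0.01 under quantile normalization. At 1 h FT895 was below vehicle in 18 of these 20 genes, against 36.9% of all genes, with a median effect of −0.15. At 12 h it was above vehicle in 7 of the 20, against 53.9%, with a median of −0.05. The list as a whole thus did not share the change of order seen in HK2 and SLC2A3 by mean. For enzymes downstream of the PFKFB step the difference was close to 0, with PGK1 at 0.00, LDHA at 0.01, PKM at 0.04 and ENO1 at 0.06, none called. Such a value says that the effects at 12 h and 1 h were alike, not that either was absent.

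PPP1R3C (chromosome 10, 91628442 to 91633054, minus strand) encodes a subunit that brings protein phosphatase 1 to glycogen and so favours glycogen synthesis. With FT895 at 12 h it was at 9.32, 10.8 and 10.5 FPKM, against 7.66, 7.43 and 6.84 FPKM with vehicle at 12 h. At 1 h it was at 3.48, 3.45 and 3.32 FPKM with FT895, against 7.03, 6.898 and 5.89 FPKM with vehicle. Mock cells had 9.198, 9.62 and 9.94 FPKM, so the level with FT895 at 12 h was close to mock while the other 3 treated groups lay under it, the 1 h FT895 libraries lowest. The difference was 1.21 ± 0.10 (adjusted p = 4.85e-05, limma; 1.17 without vehicle 1 h replicate 1). It comprised 0.43 at 12 h (adjusted p = 0.0552) and −0.78 at 1 h (adjusted p = 0.000162).

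DDIT4, also called REDD1, is a stress-induced inhibitor of the growth kinase complex mTORC1 that responds to low oxygen, amino-acid shortage and glucocorticoids. The gene lies at chromosome 10, 72273920 to 72276036, plus strand. With FT895 at 12 h it was at 133, 137 and 151 FPKM, against 99.7, 107 and 99.2 FPKM with vehicle at 12 h. At 1 h it was at 66.8, 67.4 and 66.6 FPKM with FT895, against 108, 98.9 and 109 FPKM with vehicle. Mock cells had 76.7, 77.2 and 72 FPKM, so FT895 at 1 h left DDIT4 under the mock level while the other treated groups were above it, the 12 h FT895 libraries highest. With all libraries DDIT4 was the gene called in all 3 comparisons, and without vehicle 1 h replicate 1 it was 1 of 6. It rose with FT895 at 12 h by 0.45 (adjusted p = 0.0115), and fell with FT895 at 1 h (−0.64, adjusted p = 0.000156). Its difference was 1.10 ± 0.083 (adjusted p = 2.67e-05, limma; 1.08 without vehicle 1 h replicate 1). Of the 32 tested genes of the amino-acid response driven by ATF4, DDIT4 was the member called, where 0.168% of all genes were called. The median was 0.11 (0.12 without vehicle 1 h replicate 1). Of these 32 genes, 21 had a difference above 0, against 41.1% of all genes, and 30 were above vehicle at 12 h, against 53.9%. ATF4 itself averaged 271 ± 13 FPKM with FT895 at 12 h, against 226 ± 37 with vehicle at 12 h, and 196 ± 2.6 FPKM with FT895 at 1 h, against 231 ± 7.2 with vehicle at 1 h (SD, n = 3 each). ATF4 was not called (0.51, adjusted p = 0.448, limma).

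**Figure D2:**
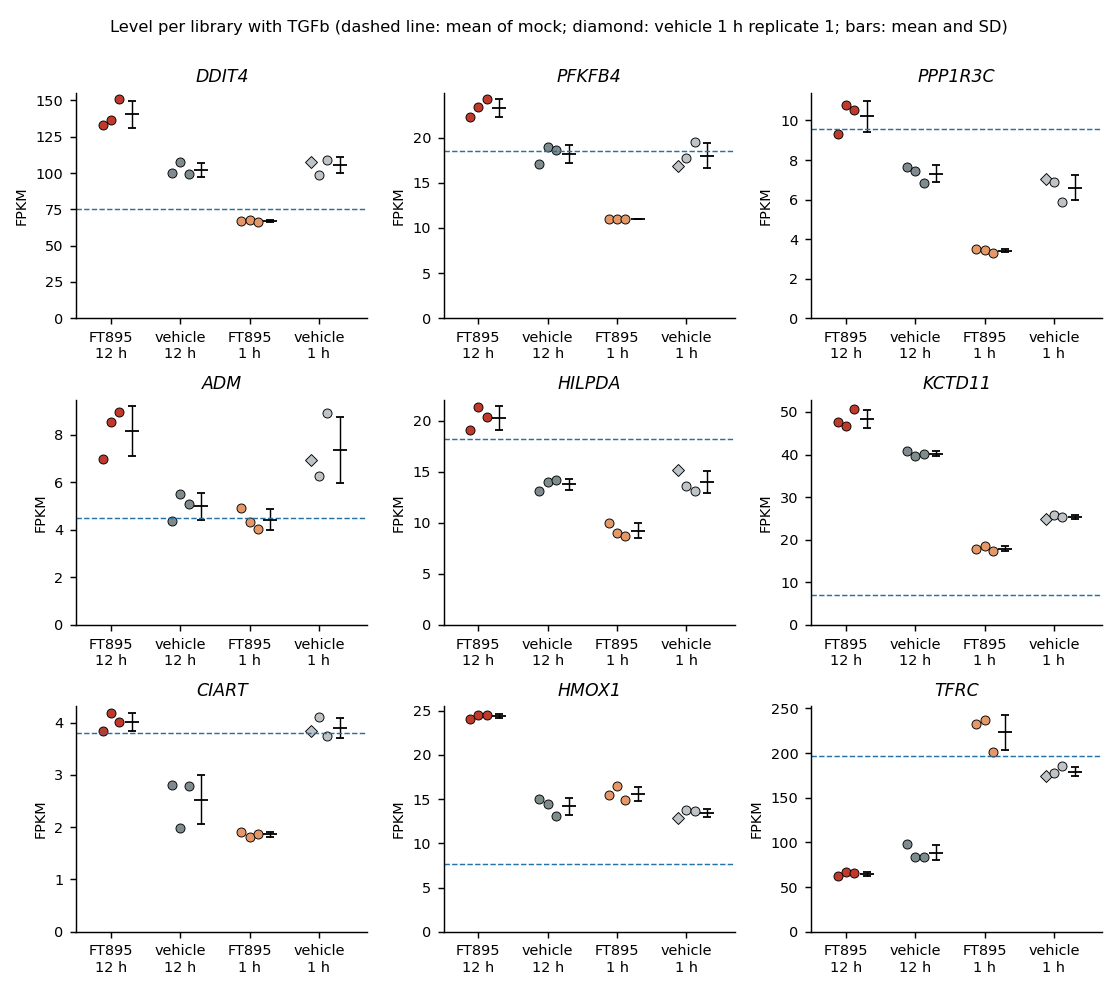
Levels of 9 called genes in FPKM (y axis, from 0) in each library of the 4 groups given TGFb, FT895 left of vehicle at each time; points are libraries, bars the mean and SD, the dashed line the mean of mock and the diamond vehicle 1 h replicate 1. In 8 of the 9 panels the FT895 and vehicle libraries change order between the times, and in the HMOX1 panel FT895 is the higher group at both.

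KCTD11, an adaptor of the CUL3 ubiquitin ligase known as an antagonist of Hedgehog signalling, was also far above mock in every treated library. It was at 47.7, 46.6 and 50.7 FPKM with FT895 at 12 h, against 40.9, 39.7 and 40.1 FPKM with vehicle at 12 h. At 1 h KCTD11 had 17.9, 18.4 and 17.5 FPKM with FT895, against 24.8, 25.9 and 25.4 FPKM with vehicle, and mock had 6.73, 7.16 and 7.26 FPKM. No group overlapped another, and the difference was 0.74 ± 0.071 (adjusted p = 0.000136, limma; 0.75 without vehicle 1 h replicate 1). BTG1, an antiproliferative factor, had 6.44, 6.8 and 7.47 FPKM with FT895 at 12 h, against 5.73, 5.66 and 6.34 FPKM with vehicle at 12 h. At 1 h BTG1 had 3.54, 3.47 and 3.48 FPKM with FT895, against 5.599, 4.94 and 4.75 FPKM with vehicle. The larger gap was at 1 h, where BTG1 was called (−0.44, adjusted p = 0.039), but not without vehicle 1 h replicate 1 (adjusted p = 0.0674). The difference was 0.63 ± 0.10 (adjusted p = 0.0203, limma; 0.57 without vehicle 1 h replicate 1).

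Adrenomedullin, the vasodilator peptide encoded by ADM (chromosome 11, 10304680 to 10307397, plus strand), is a widely used HIF target. ADM was at 6.95, 8.54 and 8.96 FPKM with FT895 at 12 h, against 4.38, 5.49 and 5.104 FPKM with vehicle at 12 h. At 1 h ADM had 4.898, 4.32 and 4.03 FPKM with FT895, against 6.94, 6.25 and 8.903 FPKM with vehicle. The FT895 group was the higher one at 12 h and the lower one at 1 h without overlap, and FT895 at 1 h sat near the mock values of 4.91, 4.13 and 4.41 FPKM. The difference was 1.22 ± 0.17 (adjusted p = 0.00642, limma; 1.26 without vehicle 1 h replicate 1). Neither time alone was called (0.61 at 12 h, adjusted p = 0.0816; −0.62 at 1 h, adjusted p = 0.0744). HILPDA, a lipid-droplet protein that inhibits triglyceride breakdown by ATGL, was at 19.1, 21.4 and 20.4 FPKM with FT895 at 12 h, against 13.2, 13.99 and 14.2 FPKM with vehicle at 12 h. At 1 h HILPDA had 10.04, 8.97 and 8.69 FPKM with FT895, against 15.2, 13.6 and 13.2 FPKM with vehicle. Mock cells spread over 14.8, 16.8 and 23.1 FPKM, a range that takes in the 12 h FT895 libraries, while FT895 at 1 h lay under it. Its difference was 1.07 ± 0.17 (adjusted p = 0.0137, limma; 1.02 without vehicle 1 h replicate 1).

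NDRG1, a stress-responsive gene that hypoxia and iron loss raise in many cells, had 75.9, 84.3 and 82.9 FPKM with FT895 at 12 h, against 62.6, 69.1 and 61.8 FPKM with vehicle at 12 h. At 1 h NDRG1 had 51.2, 47.6 and 50.6 FPKM with FT895, against 56.5, 64.6 and 64.8 FPKM with vehicle. The groups were apart at both times, and the difference was 0.63 ± 0.095 (adjusted p = 0.0119, limma; 0.70 without vehicle 1 h replicate 1). RAB20, a small GTPase of endosomes and phagosomes, had 7.45, 8.21 and 8.48 FPKM with FT895 at 12 h, against 4.97, 6.42 and 5.71 FPKM with vehicle at 12 h. At 1 h RAB20 had 6.599, 6.16 and 6.42 FPKM with FT895, against 10.6, 9.07 and 10.1 FPKM with vehicle. By mean the vehicle group at 1 h was the highest of the 4 and the vehicle group at 12 h the lowest, and the difference was 1.00 ± 0.12 (adjusted p = 0.00148, limma; 0.96 without vehicle 1 h replicate 1). DIPK2A had 7.46, 7.19 and 7.67 FPKM with FT895 at 12 h, against 5.85, 5.401 and 5.699 FPKM with vehicle at 12 h. At 1 h DIPK2A had 4.704, 4.31 and 5.03 FPKM with FT895, against 7.07, 5.96 and 6.14 FPKM with vehicle. The FT895 libraries were above vehicle at 12 h and below it at 1 h, a difference of 0.72 ± 0.11 (adjusted p = 0.0137, limma; 0.66 without vehicle 1 h replicate 1). FUT11, a fucosyltransferase, had 5.21, 6.23 and 5.26 FPKM with FT895 at 12 h, against 4.51, 4.49 and 4.02 FPKM with vehicle at 12 h. At 1 h FUT11 had 2.96, 2.73 and 3.6 FPKM with FT895, against 4.103, 4.84 and 4.27 FPKM with vehicle. Again the groups were apart and changed order, a difference of 0.70 ± 0.13 (adjusted p = 0.046, limma; 0.74 without vehicle 1 h replicate 1). ANKZF1, which acts in the release of peptides from stalled ribosomes, had 28.3, 29.6 and 30.96 FPKM with FT895 at 12 h, against 26.3, 22.6 and 23.2 FPKM with vehicle at 12 h. At 1 h ANKZF1 had 17.7, 16.8 and 19.3 FPKM with FT895, against 22.4, 22.02 and 21.2 FPKM with vehicle. The order was as in FUT11, and the difference was 0.56 ± 0.098 (adjusted p = 0.0356, limma; 0.55 without vehicle 1 h replicate 1).

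EGLN1 encodes the main prolyl hydroxylase that marks HIF alpha subunits, and is itself raised by HIF as a feedback. It was at 19.4, 18.9 and 19.04 FPKM with FT895 at 12 h, against 17.7, 17.04 and 16.6 FPKM with vehicle at 12 h. At 1 h EGLN1 had 14.5, 13.7 and 14.8 FPKM with FT895, against 18.7, 17.8 and 18.1 FPKM with vehicle. Vehicle at both times was near the mock values of 17.5, 17.2 and 17.5 FPKM, FT895 at 12 h was above them and FT895 at 1 h below them. The difference of 0.47 ± 0.069 (adjusted p = 0.0103, limma; 0.45 without vehicle 1 h replicate 1) was the smallest in size of the 21, and the 1 h effect was called (−0.32, adjusted p = 0.02).

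Over the whole list of hypoxia and HIF target genes, which was chosen with earlier results of these data known, 30 of 33 members passed the level filter. 7 were called higher (ADM, HILPDA, PFKFB4, NDRG1, SLC2A3, PFKFB3 and EGLN1) and none lower, where 0.144% of all genes were called higher. The median difference was 0.24 (0.30 without vehicle 1 h replicate 1), against −0.04 for all genes, and 21 of 30 members were above 0, against 41.1% of all genes. At an unadjusted p under 0.05 there were 16 higher members and 1 lower, PDK1 (−0.28). Among the 23 members not called, 14 were above 0 with a median of 0.15. INSIG2, a brake on sterol synthesis, had a difference of 0.60 (adjusted p = 0.343, limma). ANKRD37 had one of 0.58, the hydroxylase EGLN3 of 0.49 and the MYC antagonist MXI1 of 0.38 (adjusted p = 0.13, limma). The angiogenic factor VEGFA had a difference of 0.25 and the glucose transporter SLC2A1 of 0.25. Other textbook targets had differences near or below 0. The carbonic anhydrase CA9 had a difference of −0.20, CA12 of −0.23, the collagen hydroxylase P4HA1 of −0.03, LOX of −0.01 and the mitophagy receptor BNIP3 of 0.09, none of them called. HIF1A, the HIF alpha subunit gene, averaged 120.4 ± 8.6 FPKM with FT895 at 12 h, against 113 ± 9.4 with vehicle at 12 h, and 145 ± 5.9 FPKM with FT895 at 1 h, against 120.2 ± 4.8 with vehicle at 1 h (SD, n = 3 each). The difference for HIF1A was −0.18 (95% interval −0.39 to 0.02).

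In levels, the summed FPKM of the hypoxia list ran from 1506 to 1572 with FT895 at 12 h, against 1457 to 1507 with vehicle at 12 h, and from 1281 to 1301 with FT895 at 1 h, against 1371 to 1454 with vehicle at 1 h; mock gave 1296 to 1326. The ranges overlapped slightly at 12 h and were apart at 1 h. The libraries of single members were above vehicle without overlap at 12 h in 13 of the 30, against 7.83% of all genes, and below vehicle without overlap at 1 h in 15 of the 30, against 3.51% of all genes. Both held for 10 of the 30, against 0.409% of all genes. These counts include all 7 called members, whose separation follows largely from the call. The list was also chosen with earlier results known, so the counts are no further support. Without vehicle 1 h replicate 1, 9 members were called, BHLHE40 and SLC2A1 being added. Of the 7 called with all libraries, 2 kept the call without FT895 1 h replicate 2, 3 without FT895 12 h replicate 3, and 4 when the fit held the 12 treated libraries alone.

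**Figure D3:**
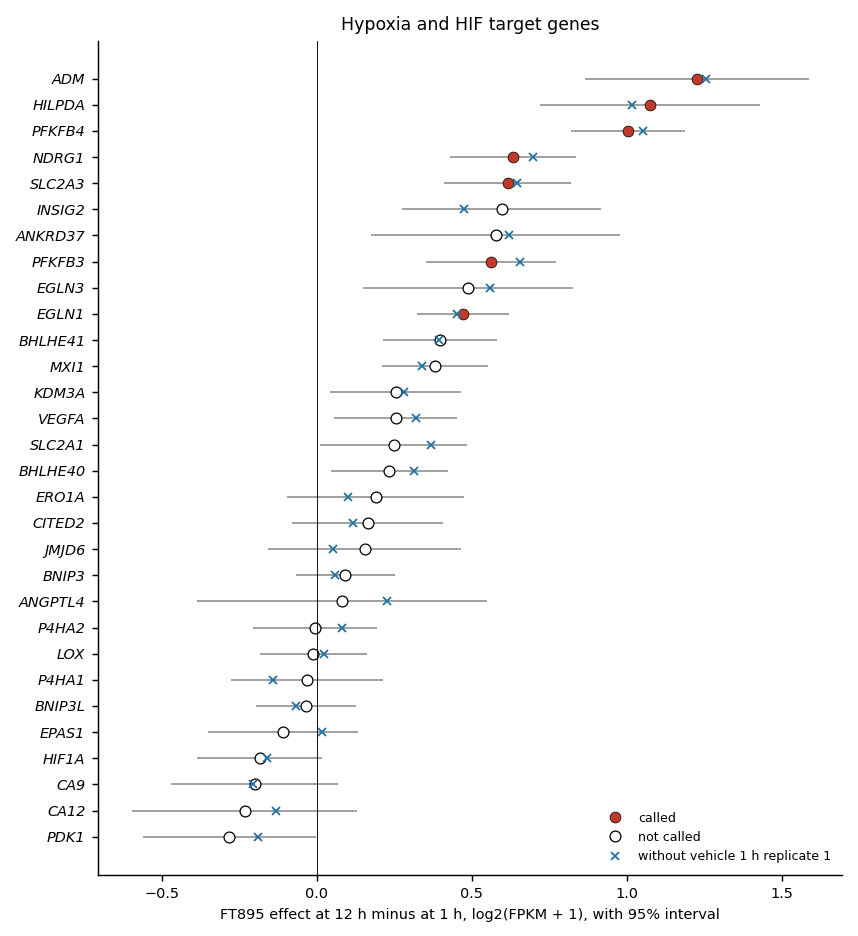
The 30 tested hypoxia and HIF target genes with the 12 h effect of FT895 minus its 1 h effect on the log2(FPKM + 1) scale (x axis), circles with 95% intervals from all libraries and crosses without vehicle 1 h replicate 1. The 7 called genes (red) lie between 0.47 and 1.22; 16 intervals lie above 0, 21 of the 30 values are above 0 and 9 are below it, PDK1 lowest.

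CIART (chromosome 1, 150282543 to 150287093, plus strand), a repressor of the CLOCK and BMAL1 transcription factors, had the largest difference of the 21 genes. It was at 3.85, 4.19 and 4.02 FPKM with FT895 at 12 h, against 2.805, 1.99 and 2.78 FPKM with vehicle at 12 h. At 1 h CIART had 1.9, 1.81 and 1.87 FPKM with FT895, against 3.84, 4.11 and 3.74 FPKM with vehicle. Mock had 4.04, 3.096 and 4.24 FPKM, so vehicle at 1 h and FT895 at 12 h lay near the mock level and the other treated groups lay under it. The difference was 1.29 ± 0.15 (adjusted p = 0.00091, limma; 1.30 without vehicle 1 h replicate 1). The effects were −0.77 at 1 h (adjusted p = 0.00657) and 0.52 at 12 h (adjusted p = 0.0875). Of 19 clock genes tested CIART was the member called, where 0.168% of all genes were called, and the median was −0.01 (0.03 with median-of-ratios scaling). BHLHE41 had a difference of 0.40 (adjusted p = 0.162), NFIL3 of 0.32, PER1 of 0.10, NR1D1 of −0.11 and PER3 of −0.30, none called by limma.

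HMOX1, which degrades heme to biliverdin, carbon monoxide and iron, differed from the other called genes in having FT895 above vehicle at both times. The gene (chromosome 22, 35380361 to 35394214, plus strand) was at 24.1, 24.5 and 24.6 FPKM with FT895 at 12 h, against 14.97, 14.5 and 13.1 FPKM with vehicle at 12 h. At 1 h it was at 15.4, 16.5 and 14.9 FPKM with FT895, against 12.9, 13.8 and 13.6 FPKM with vehicle, and mock had 8.33, 7.85 and 6.89 FPKM. All treated libraries were above mock, and the 12 h FT895 group was well apart from the rest. HMOX1 rose with FT895 at 12 h by 0.74 (adjusted p = 0.000391); the 1 h effect was 0.20 (adjusted p = 0.242) and the difference 0.54 ± 0.098 (adjusted p = 0.046, limma; 0.57 without vehicle 1 h replicate 1). It was the member called of 25 NRF2 targets tested, where 0.168% of all genes were called. NQO1 had a difference of 0.14, GCLM of 0.09, TXNRD1 of −0.09 and SRXN1 of −0.15, none called.

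TFRC, the transferrin receptor through which cells take up iron, was the most negative of the 21. Its mRNA is known to be stabilised by iron regulatory proteins when iron is scarce, and HIF can raise its transcription. The gene (chromosome 3, 196027183 to 196082189, minus strand) was at 61.9, 66.4 and 66.2 FPKM with FT895 at 12 h, against 97.98, 83.8 and 83.5 FPKM with vehicle at 12 h. At 1 h it was at 233, 237 and 201 FPKM with FT895, against 175, 178 and 185 FPKM with vehicle. Both 12 h groups were far under the mock values of 204, 186 and 199.9 FPKM, the FT895 group lowest, while at 1 h the FT895 libraries lay above the vehicle libraries. The difference was −0.75 ± 0.11 (adjusted p = 0.00704, limma; −0.73 without vehicle 1 h replicate 1). The single effects were −0.44 at 12 h (adjusted p = 0.0552) and 0.31 at 1 h (adjusted p = 0.151). Of 23 iron and heme genes tested, HMOX1 was called higher and TFRC lower, where 0.168% of all genes were called. The median was −0.05, near that of all genes. FBXL5, the iron-sensing subunit of the ligase for an iron regulatory protein, averaged 29.9 ± 3.6 FPKM with FT895 at 12 h, against 35.2 ± 3.7 with vehicle at 12 h, and 32.2 ± 0.66 FPKM with FT895 at 1 h, against 26.9 ± 3.7 with vehicle at 1 h (SD, n = 3 each). FBXL5 was not called (−0.49, adjusted p = 0.456, limma). The ferritin genes FTH1 and FTL had differences of −0.04 and 0.22 and the iron exporter SLC40A1 of 0.00, none called.

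CYP1B1, a cytochrome P450 under control of the aryl hydrocarbon receptor, had 1.504, 1.31 and 1.42 FPKM with FT895 at 12 h, against 2.23, 2.46 and 2.46 FPKM with vehicle at 12 h. At 1 h CYP1B1 had 8.81, 8.64 and 10.4 FPKM with FT895, against 7.67, 8.85 and 8.31 FPKM with vehicle. The groups were apart at 12 h and overlapped at 1 h, and the difference was −0.63 ± 0.11 (adjusted p = 0.0356, limma; −0.59 without vehicle 1 h replicate 1). CYP1B1 shares its locus with an antisense gene, CYP1B1-AS1, whose reads cannot be told apart where no strand is stated. SHISA2, which holds back maturation of WNT and FGF receptors, had 1.98, 1.96 and 2.31 FPKM with FT895 at 12 h, against 3.01, 2.91 and 2.55 FPKM with vehicle at 12 h. At 1 h SHISA2 had 7.21, 8.42 and 8.31 FPKM with FT895, against 6.75, 6.31 and 5.78 FPKM with vehicle. It was lower with FT895 at 12 h and higher at 1 h without overlap, a difference of −0.61 ± 0.11 (adjusted p = 0.0465, limma; −0.66 without vehicle 1 h replicate 1). In all, 11 of the 21 called genes overlap another annotated gene in GENCODE v29, 9 of them one on the opposite strand. Among them HILPDA shares 2570 bases with AC010655.4 on the same strand. DDIT4 shares 1066 bases with DDIT4-AS1, and KCTD11 2258 with AC026954.3, both on the opposite strand. How reads in such shared stretches were assigned is not known here.

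The promoters of 2 genes called higher and 2 called lower are printed because the called genes include targets of HIF, whose core letters can be looked for there. They are the 250 bases before the transcription start, from the RefSeq table for GRCh38.p14, which matched 13 of the 21 called genes; where the table has several starts the one listed first was used. That start is not the outermost start of the gene in GENCODE v29. It lies inside the GENCODE gene by 393 bases for ADM, so that the whole ADM stretch is within the annotated gene, and by 99 bases for TFRC, and outside it by 17 bases for PPP1R3C and 985 bases for SHISA2. They are written 5′ to 3′ on the gene's strand, with capitals marking each match to ACGTG on either strand (CACGT on the strand printed).
ADM promoter, chr11:10304823-10305072, plus strand: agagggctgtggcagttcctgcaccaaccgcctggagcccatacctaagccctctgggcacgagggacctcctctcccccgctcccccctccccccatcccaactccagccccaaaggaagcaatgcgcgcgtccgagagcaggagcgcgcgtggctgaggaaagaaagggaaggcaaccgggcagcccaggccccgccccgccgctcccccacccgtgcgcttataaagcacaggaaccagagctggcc
PPP1R3C promoter, chr10:91633072-91633321, minus strand: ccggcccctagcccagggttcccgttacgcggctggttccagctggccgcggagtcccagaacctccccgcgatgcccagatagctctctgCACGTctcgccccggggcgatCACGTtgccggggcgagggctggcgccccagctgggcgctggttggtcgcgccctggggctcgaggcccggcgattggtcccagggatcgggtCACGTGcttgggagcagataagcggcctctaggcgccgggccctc
TFRC promoter, chr3:196082091-196082340, minus strand: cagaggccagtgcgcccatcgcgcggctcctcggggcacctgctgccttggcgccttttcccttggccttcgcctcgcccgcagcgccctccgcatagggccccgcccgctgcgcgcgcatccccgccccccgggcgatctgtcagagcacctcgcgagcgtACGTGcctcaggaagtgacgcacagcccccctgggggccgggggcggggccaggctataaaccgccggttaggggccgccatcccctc
SHISA2 promoter, chr13:26052017-26052266, minus strand: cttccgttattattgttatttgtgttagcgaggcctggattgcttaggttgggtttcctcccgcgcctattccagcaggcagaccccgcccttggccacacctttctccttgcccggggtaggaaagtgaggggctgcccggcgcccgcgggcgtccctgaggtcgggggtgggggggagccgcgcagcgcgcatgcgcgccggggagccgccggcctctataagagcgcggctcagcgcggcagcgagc

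The PPP1R3C stretch held 4 matches, with first bases at −159, −138, −45 and −44 relative to the start; the last 2 overlap in 1 palindrome, CACGTG, which is also the E-box read by CLOCK, BMAL1 and MYC family proteins. The TFRC stretch held 1 match, at −88, and the ADM and SHISA2 stretches held no ACGTG. Only ACGTG was looked for, so other forms of the core, such as the GCGTG in the ADM stretch, were not counted. Over the called genes in the table, ACGTG on either strand was in 6 of the 11 promoters of genes called higher (54.5%), against 24.2% of the 9409 tested genes with a promoter in the table and 18.7% of all 27305 promoters of the same length. CIART had 6 matches, PPP1R3C 4, HK2 and KCTD11 2 each, and DDIT4 and EGLN1 1 each. ADM, BTG1, DIPK2A, PFKFB3 and PFKFB4 had no ACGTG within these 250 bases. Of the called hypoxia-list members with a promoter in the table, EGLN1 thus had a match, and ADM, PFKFB3 and PFKFB4 had none. ANKZF1, FUT11, HILPDA, HMOX1, NDRG1, RAB20, SLC2A3 and CYP1B1 were not matched. Other motifs were scanned in the same 11 promoters, and no share was tested. The TATA box was in 18.2%, against 4.81% of the tested genes. The E-box CACGTG, which contains ACGTG, was in 18.2%, against 9.33%, and the antioxidant element in 0.0%, against 12.1%. The SP/KLF GC box was in 81.8%, against 69.3%, and the CCAAT box in 45.5%, against 35.5%. The SMAD GC element was in 36.4%, against 26.9%, and the AP-1 element in 9.09%, against 3.6%. The TEAD element was in 9.09%, against 9.36%. The CRE, the ATF4, heat shock and EGR elements and the SMAD palindrome were in 0.0%, against 0.128% to 4.0%. A match is a run of letters and not a measured binding site, and the data hold no measure of HIF binding.

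In the list of direct TGF-beta/SMAD targets, 34 genes were tested. HMOX1 was the member called, where 0.168% of all genes were called, and the median was −0.04 (0.00 without vehicle 1 h replicate 1). CCN2 had a difference of 0.05, SMAD7 of −0.08 and SNAI1 of 0.10, none called. DLX2, a homeobox gene of the list, came nearest to a call after HMOX1, with 1.82 ± 0.48 FPKM with FT895 at 12 h, against 3.005 ± 0.24 with vehicle at 12 h, and 8.71 ± 0.2 FPKM with FT895 at 1 h, against 7.23 ± 0.85 with vehicle at 1 h (−0.76, adjusted p = 0.0961, limma). None of 27 collagens and matrix proteins was called, which is near that background and is no result about these genes: 3 were above 0 and the median was −0.16, but without vehicle 1 h replicate 1 it was 0.00, and COL1A1 had a difference of −0.17 (−0.06 without that library) and FN1 of −0.21 (0.09).

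No member was called in 28 of the 35 lists with at least 5 genes tested, 669 members in all, where 0.168% of all genes were called, so a count of 0 in a list is near the background and is no result about it. Their medians ran from −0.17 to 0.24. The highest of these was the list of genes encoded by the mitochondrial DNA, where 13 of 13 had a difference above 0, between 0.09 (MT-ND4L) and 0.35 (MT-ND6, adjusted p = 0.395), with a median of 0.24. The median was 0.28 without vehicle 1 h replicate 1 and 0.05 under quantile normalization. Their summed level was 46676 to 48445 FPKM with FT895 at 12 h, against 45151 to 50673 with vehicle at 12 h, and 38131 to 42873 FPKM with FT895 at 1 h, against 42307 to 54960 with vehicle at 1 h. The groups overlapped at both times, at 1 h through vehicle replicate 1 (42307 FPKM) alone, since the other vehicle libraries had 46203 and 54960 FPKM. Cytokine, chemokine and NF-kB genes had the reverse sign, with 5 of 23 above 0 and a median of −0.16 (9 lower at an unadjusted p under 0.05, where 5.41% of all genes were). The chemokine CCL20 averaged 2.83 ± 0.39 FPKM with FT895 at 12 h, against 5.099 ± 0.73 with vehicle at 12 h, and 8.51 ± 1.7 FPKM with FT895 at 1 h, against 8.13 ± 1.5 with vehicle at 1 h (SD, n = 3 each; −0.73, adjusted p = 0.408, limma). The growth factor CSF1 had a difference of −0.41 (adjusted p = 0.352, limma).

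Among genes that restrain ERK signalling none of 15 was called, where 0.168% of all genes were called. SPRY1 (0.96, adjusted p = 0.0528) and DUSP1 (0.50, adjusted p = 0.0623) were nearest to a call by limma. SPRY1 passed the level filter through mock, with 3 of 3 mock libraries and 1 of 12 treated libraries at 1 FPKM or more. It was low, at 0.754, 0.909 and 1.07 FPKM with FT895 at 12 h, against 0.204, 0.525 and 0.4303 FPKM with vehicle at 12 h. At 1 h SPRY1 had 0.164, 0.223 and 0.247 FPKM with FT895, against 0.488, 0.943 and 0.693 FPKM with vehicle. The phosphatase gene DUSP1 averaged 45.7 ± 1.6 FPKM with FT895 at 12 h, against 40.1 ± 0.62 with vehicle at 12 h, and 37.1 ± 4.2 FPKM with FT895 at 1 h, against 46.1 ± 1.4 with vehicle at 1 h (SD, n = 3 each). Genes of mitosis (38 tested, median −0.03), DNA replication (41 tested, median 0.01) and p53 targets (29 tested, median −0.03) had no call, which is near that share and is no result about them. Cytosolic ribosomal proteins had 60 of 66 members above 0, with a median of 0.11, but the median was −0.06 without vehicle 1 h replicate 1, whose summed ribosomal protein level of 51012 FPKM compares with at most 38013 FPKM in the other 14 libraries. Of the 35 list medians, 11 changed sign when that library was left out.

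**Figure D4:**
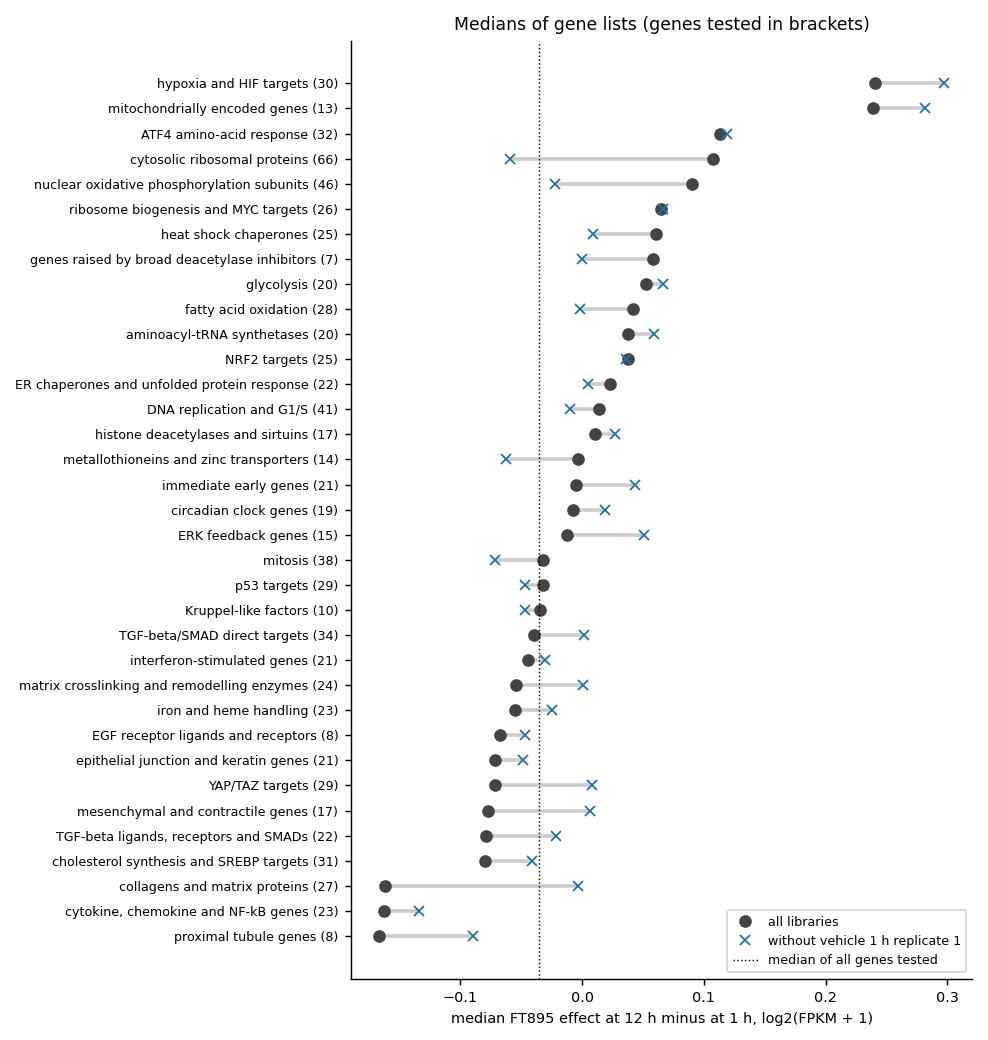
Median of the 12 h effect of FT895 minus its 1 h effect, in log2(FPKM + 1), of 35 gene lists with at least 5 genes tested; dots use all libraries, crosses leave out vehicle 1 h replicate 1, and the dotted line is the median of all genes. Hypoxia and HIF targets and the mitochondrially encoded genes lie highest in both, near 0.24 with all libraries, whereas the medians of cytosolic ribosomal proteins and of collagens move to near 0 or beyond it without that library.

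PDGFB, a growth factor for mesenchymal cells, was the gene called at 1 h that was not called in the difference. It was at 56.1, 53.5 and 55.7 FPKM with FT895 at 12 h, against 59.9, 66.4 and 63.3 FPKM with vehicle at 12 h. At 1 h PDGFB had 34.7, 32.3 and 37.4 FPKM with FT895, against 43.9, 46.5 and 49.3 FPKM with vehicle. FT895 was the lower group at both times, called at 1 h (−0.41, adjusted p = 0.0323) and not at 12 h (−0.19, adjusted p = 0.607), and the difference of 0.22 was not called (adjusted p = 0.627, limma).

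Leaving out vehicle 1 h replicate 1 gave 28 calls in the difference (0.225% of genes), 23 higher and 5 lower, and all of the 21 remained called. The 7 added were SPRY1 (1.05), which passed the level filter only through mock, RARA (0.42), SLC2A1 (0.37), GPRC5A (0.33) and BHLHE40 (0.31), all higher, and HYI (−0.82) and RPL22L1 (−0.71), both lower, as log2 differences without that library. The single times changed more. Without it 44 genes were called at 12 h in place of 2, and 13 at 1 h in place of 9. SLC2A1 averaged 263 ± 4.1 FPKM with FT895 at 12 h, against 253 ± 8.6 with vehicle at 12 h, and 168 ± 4.8 FPKM with FT895 at 1 h, against 194 ± 27 with vehicle at 1 h over all libraries (SD, n = 3 each).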

How the data were processed

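Polyadenylated RNA of HK-2 cells was sequenced in 15 libraries, 5 groups of 3, of which 12 enter the comparison. The submitters' processing notes name HISAT2, StringTie and build GRCh38; no source used here gives versions, annotation release or strandedness. Deposited values are FPKM, scaled by the authors by transcript length and mapped total, 1 column per library. FPKM carries no depth, so read depth is unknown and no counting interval is given; FPKM also does not show reads split between close paralogs. Of 24880 loci 19974 carry Ensembl identifiers and 4906 are unannotated; 19504 identifiers had a symbol, and coordinates are from GENCODE v29, which holds all 19974. No column was left out.

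Groups follow the sample titles. FPKM was taken to log2 after adding 1, which understates changes of low genes. Loci reaching 1 FPKM in 3 or more of 15 libraries were kept (12467, of them 931 unannotated). In limma 3.58.1, 1 model of 5 group means covered the 15 libraries (R 4.3.3; eBayes with trend, 10 residual and 4.34 prior degrees of freedom). P-values were two-sided and Benjamini-Hochberg adjusted over all genes tested. Error is the SE of the fitted log2 difference, or the SD of FPKM over 3 libraries. The fit was run on simulated data with known differences, where each gene had the same spread of normal noise in every library. That setting holds no outlying library, so it does not cover vehicle 1 h replicate 1.

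The comparison, its members and the 39 gene lists were chosen with earlier results of these data known. Named are HDAC11, every gene called in any of the 3 comparisons, and list members given as examples: up to 4 called members, or the 2 of smallest p, plus well-known members chosen after their values were seen. Replicate numbers were not treated as pairs. Of 18 same-numbered pairs 2 had deviations correlated above 0.1, which shows little shared deviation but cannot exclude pairing. Alternatives were the pseudocount, the filter, the scaling, the libraries in the fit, array weights, the trend, a replicate block and leaving out each library. Values of 2 genes are not reported here.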

Additional observations from a re-analysis of the deposited data

Results flagged for a closer look

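The effect of FT895 against vehicle differed between 12 h and 1 h, by limma's test of the difference itself, in each of the 21 genes called. The differences on the log2(FPKM + 1) scale, 12 h minus 1 h, were 1.29 for CIART, 1.22 for ADM, 1.21 for PPP1R3C, 1.10 for DDIT4, 1.07 for HILPDA, 1.00 for PFKFB4 and 1.00 for RAB20. They were 0.74 for KCTD11, 0.72 for DIPK2A, 0.70 for FUT11, 0.66 for HK2, 0.63 for NDRG1, 0.63 for BTG1 and 0.62 for SLC2A3. For ANKZF1 the difference was 0.56, for PFKFB3 0.56, for HMOX1 0.54 and for EGLN1 0.47. The 3 negative values were −0.75 for TFRC, −0.63 for CYP1B1 and −0.61 for SHISA2. Groups of 3 libraries are too small for a test of single outlying libraries, and no file or column was left unused.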

How the results depend on the processing

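The count of 21 genes called in the difference, beside 2 at 12 h and 9 at 1 h, was recomputed under 23 alternatives. With a pseudocount of 0.1 or of 0.5 the 12 h count was 6 each, with no filter on low values it was 5, with a filter on a mean of at least 5 FPKM it was 13, with median-of-ratios scaling 7, with quantile normalization 5, with Ensembl genes alone 11 and with the 12 treated libraries alone 1. Fitting those 12 libraries alone gave 11 calls in the difference. Array weights gave 59 in the difference, 59 at 12 h and 1974 at 1 h, with weights of 0.106 for vehicle 1 h replicate 1 and 5.11 for replicate 3, against at most 1.75 in the other libraries, so that replicate 3 carries most of that group; median-of-ratios scaling gave 16 at 1 h. The cause was not tested. The replicate block gave 15 in the difference (14 of them among the 21), 1 at 12 h and 8 at 1 h. Of the 18 same-numbered pairs 6 correlated best with their own number, which does not settle whether the numbers mark pairs.

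Leaving out each library gave 8 to 28 calls in the difference, 1 to 44 at 12 h and 4 to 19 at 1 h. In the difference there were 10 without FT895 12 h replicate 3, 13 each without vehicle 12 h replicates 1 and 2, and 8 without FT895 1 h replicate 2. The 12 h count was 1 without FT895 12 h replicate 3, 1 without vehicle 12 h replicate 1, 5 without replicate 2, 1 without replicate 3, 4 without FT895 1 h replicate 3, and 44, 6 and 15 without vehicle 1 h replicates 1, 2 and 3. The 1 h count was 19 without vehicle 12 h replicate 1, 5 and 4 without FT895 1 h replicates 1 and 2, and 18 and 5 without vehicle 1 h replicates 2 and 3.

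No called gene changed sign in 481 gene by alternative comparisons, and 358 of them kept the call. 8 genes were called in every alternative that tested them: PPP1R3C, DDIT4, PFKFB4, KCTD11, RAB20, ADM, TFRC and CIART. HMOX1, called in 7 of 23, CYP1B1, in 8, and HK2, PFKFB3, FUT11 and SHISA2, in 9 each, rested most on the settings. CIART and FUT11 were under the mean level of 5 and have no value there. SPRY1 and DUSP1 were called under some alternatives (8 and 4, with 15 such calls in 1462 comparisons of named genes that were not called). Scaling moved the median of all genes from −0.04 to 0.00. Depth limits cannot be set from FPKM.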
